A study of Rattus norvegicus with 16 samples.

Results

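The 7 genes described here are the classical complement components C1qa, C1qb, C1qc, C1r, C1s and C3, together with Serping1, which encodes C1 inhibitor. A gene was included when a probe set of the rat array named it, or an alias of it, as its only symbol. Each gene had exactly 1 such probe set, so 7 of 31099 probe sets and 7 of 14217 genes were members. The probe sets were 1376652_at for C1qa, 1370215_at for C1qb, 1373025_at for C1qc, 1383241_at for C1r, 1387893_at for C1s, 1368000_at for C3 and 1372254_at for Serping1.

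The study followed gene expression in rat cortex early after a bruising head injury. RNA carrying poly(A) tails from lateral cortex was hybridised to 16 Affymetrix arrays, 12 from injured and 4 from sham animals. All animals were male Wistar rats 8 weeks old, whose genotype the labels do not describe further. All of them, shams included, had an opening made in the skull over the right parietal cortex 48 h before the percussion or sham procedure, so the surgery was common to every group. The injured groups received a moderate lateral fluid percussion, a pulse of saline against the exposed dura, and cortex from the contused area was taken after 3, 6, 12 or 48 h (3 arrays per time). The shams were 1 array each at 3, 6, 12 and 48 h. The brains were rinsed of blood by perfusion with saline before dissection. The study took the 3, 6 and 12 h shams as 1 control group, called the early shams below, and set the 48 h injury against the 48 h sham alone, which its own cluster analysis placed apart from the other shams. The labels do not say whether arrays came from separate animals or were processed together, so the p-values measure only the spread between arrays, which may be partly technical.

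Complement is a chain of blood and tissue proteins that marks surfaces for removal. In the classical pathway C1q, built from the A, B and C chains, recognises antibody, debris or exposed membrane and activates the bound proteases C1r and C1s, which set off cleavage of C3, whose fragments tag the target and recruit phagocytes. C1 inhibitor, a serpin, inactivates C1r and C1s and also brakes the plasma contact system. In brain, microglia are the main source of C1q, and C1q and C3 are best known there for tagging synapses and debris, while C3 is also a marker of reactive astrocytes.

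In the RefSeq annotation of the rat assembly GRCr8, C1qb, C1qc and C1qa follow each other directly as protein-coding genes on chromosome 5, and C1r and C1s are neighbours on chromosome 4, with the related gene C1rl on the other side of C1r. C3 lies on chromosome 9 and Serping1 on chromosome 3. Promoters of 4 of the 7 members, 250 bases before to 50 bases after the annotated start, are shown to set the starts of C1q, C1r and C3 genes, which differ in their time courses below, side by side; they are the members whose promoters the table used lists. They come from RefSeq (GRCr8) and read 5′ to 3′ on the strand of the gene, with capitals marking the motif matches described after them.
C1qa, chr5:154419884-154420183, minus strand: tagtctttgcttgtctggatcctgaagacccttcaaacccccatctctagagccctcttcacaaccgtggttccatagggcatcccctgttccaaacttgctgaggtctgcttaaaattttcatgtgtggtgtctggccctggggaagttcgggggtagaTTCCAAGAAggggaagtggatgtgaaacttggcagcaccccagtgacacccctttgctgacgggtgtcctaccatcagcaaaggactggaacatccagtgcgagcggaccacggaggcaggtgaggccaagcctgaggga
C1qb, chr5:154407778-154408077, minus strand: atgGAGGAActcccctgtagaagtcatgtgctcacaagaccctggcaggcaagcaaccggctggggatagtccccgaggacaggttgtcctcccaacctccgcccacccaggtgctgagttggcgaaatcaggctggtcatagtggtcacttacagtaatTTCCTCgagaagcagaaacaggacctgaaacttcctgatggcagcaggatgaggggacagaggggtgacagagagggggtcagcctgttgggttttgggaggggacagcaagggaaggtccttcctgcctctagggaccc
C1r, chr4:159098763-159099062, plus strand: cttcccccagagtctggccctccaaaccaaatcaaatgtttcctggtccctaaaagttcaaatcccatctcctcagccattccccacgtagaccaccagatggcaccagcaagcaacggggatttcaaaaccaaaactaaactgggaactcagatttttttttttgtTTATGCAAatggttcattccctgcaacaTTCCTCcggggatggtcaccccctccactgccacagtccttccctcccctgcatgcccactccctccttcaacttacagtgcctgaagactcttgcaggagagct
C3, chr9:2201290-2201589, minus strand: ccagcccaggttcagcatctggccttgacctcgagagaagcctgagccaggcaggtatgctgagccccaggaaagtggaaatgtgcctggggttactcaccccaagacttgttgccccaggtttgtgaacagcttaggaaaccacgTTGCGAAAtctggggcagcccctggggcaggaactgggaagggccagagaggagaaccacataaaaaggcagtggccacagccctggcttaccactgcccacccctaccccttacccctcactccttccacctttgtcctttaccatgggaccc

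Each of 5 motifs was searched on both strands, and no matches overlapped. The gamma-activated site TTCNNNGAA, a letter pattern of STAT binding sites, occurred in the C1qa promoter, 90 bases before the start, and in 8.87% of 33469 rat promoters of the same length. The core GAGGAA, the pattern of the myeloid factor PU.1, occurred at 2 places in the C1qb promoter, 247 and 90 bases before the start, and once in that of C1r, 55 bases before it. It is a frequent pattern, found in 27.6% of all promoters. The C/EBP core TTGCNNAA occurred in C1r (83 bases before the start) and C3 (104 bases), against 10.6% of all promoters. None of the 4 promoters held the interferon-stimulated response element (3.92% of all promoters) or the NF-kB site (0.362%). These are matches of letters within the windows shown, not measured binding.

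The deposited values are log intensities, taken here as log2, from which the median of each probe set over the 16 arrays had been subtracted. A value of 1 is therefore a doubling over that gene's own median, and neither the level of a gene relative to another nor its detection can be read, so the tissue label could not be checked against marker levels. Differences below are log2 differences with their standard error (SE) from limma, a linear model fitted to all 14217 genes and 6 groups with Benjamini-Hochberg adjustment over all genes, and a gene is said to have risen or fallen only at an adjusted p under 0.05. Every comparison made against the early shams shares the same 3 arrays. The 48 h sham is a single array, assumed in the model to vary like the other groups. The second injured 48 h array had the widest spread over genes (SD 0.387, against 0.199 for the narrowest array) and the highest value of every member among the 3 injured 48 h arrays, so values without it are given where it changes a result. In whole tissue, a change in the number of cells of a type and a change in RNA per cell cannot be told apart.

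**Figure D1:**
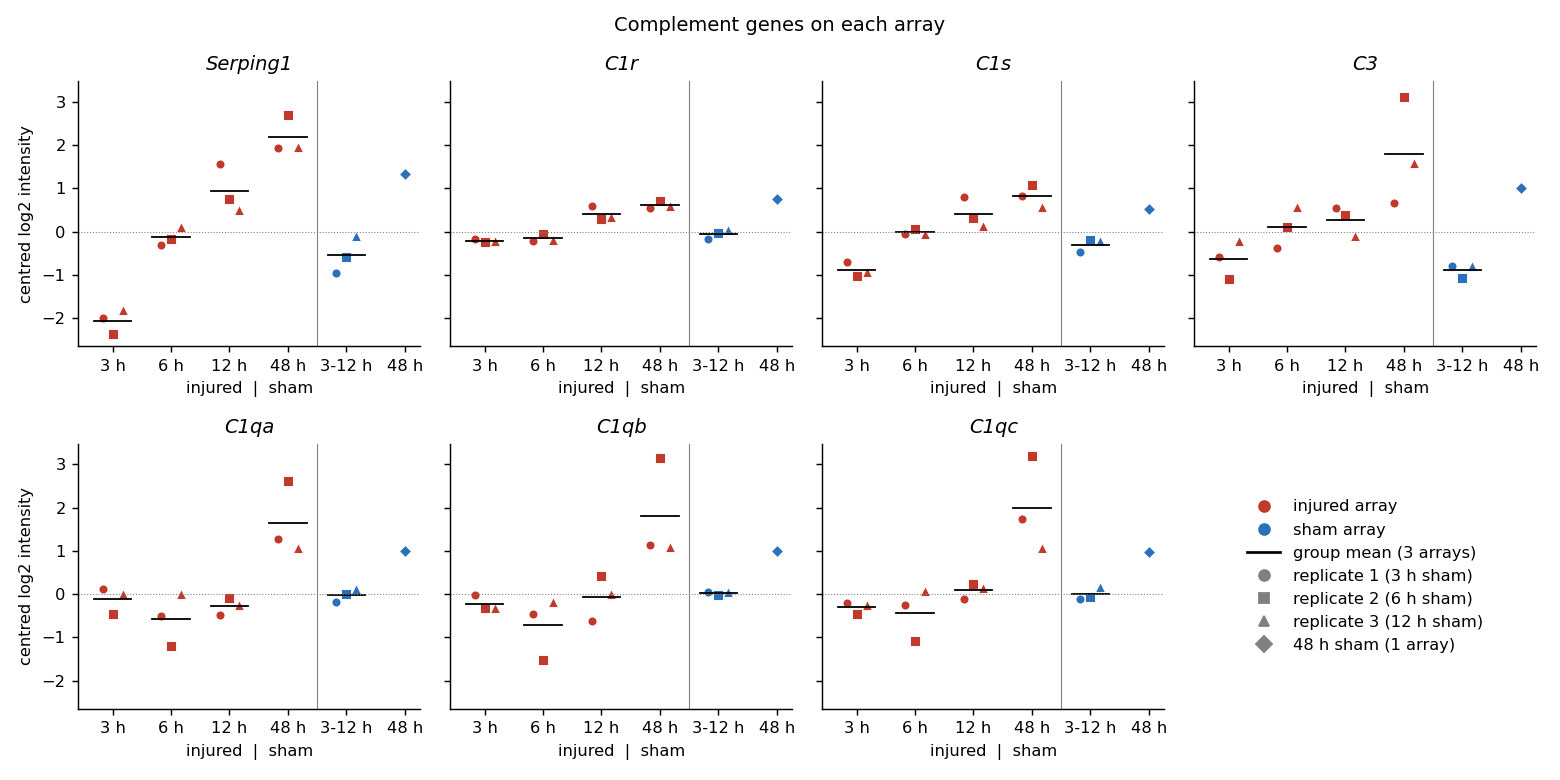
Centred log2 intensity of each member on each array, with injured arrays (red) by time on the left and shams (blue) on the right of each panel; lines are means of 3 arrays and marker shapes show the replicate. Serping1 averaged -2.06, -0.13, 0.94 and 2.19 in injured cortex at 3, 6, 12 and 48 h, while the C1q chains stood high only at 48 h and in the 48 h sham.

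Serping1, the gene of C1 inhibitor, covered the widest range of the members. On the injured arrays its log2 values were -1.99, -2.37 and -1.82 at 3 h, -0.31, -0.18 and 0.10 at 6 h, 1.55, 0.76 and 0.50 at 12 h, and 1.92, 2.69 and 1.95 at 48 h. The early shams had -0.95, -0.59 and -0.10, and the 48 h sham had 1.34. All injured arrays at 3 h lay below every sham, and all at 12 h lay above every early sham. At 3 h Serping1 fell by 1.51 ± 0.28 against the early shams (SE; n = 3 and 3; 2.85-fold lower; limma adjusted p = 0.0287), the only 1 of the 7 members to pass the test at that time, where 0.0985% of all genes fell. The call did not hold without any single injured array (limma adjusted p = 0.0736, 0.155 and 0.0618 without replicate 1, 2 and 3), without the 6 h sham (0.12) or without the 12 h sham (0.152). Under 14 alternatives the log2 difference stayed between -1.99 and -1.11. It was smallest in size, -1.11, against the 3 h sham alone, where the call did not hold either.

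At 6 h the Serping1 difference was 0.42 ± 0.28 and did not pass (limma adjusted p = 0.551). At 12 h it rose by 1.48 ± 0.28 against the early shams (2.80-fold; adjusted p = 0.00852), and at 48 h by 2.73 ± 0.28 against the same shams (6.65-fold; adjusted p = 0.000242). The 12 h call was lost after quantile normalization of the centred values (limma adjusted p = 0.0809) and held in each fit that left out 1 array. That normalization gives every array the same distribution of centred values. Among the shams, taken in order of time, the values were -0.95, -0.59, -0.10 and 1.34, so the control that is chosen matters: with all 4 shams as control none of the members passed at 12 h, while 6.64% of all genes did.

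C1r and C1s, the proteases that C1 inhibitor inactivates, covered narrower ranges. C1s had -0.71, -1.03 and -0.94 in injured cortex at 3 h, -0.05, 0.05 and -0.06 at 6 h, 0.79, 0.31 and 0.12 at 12 h and 0.83, 1.07 and 0.57 at 48 h, against -0.48, -0.20 and -0.23 in the early shams and 0.53 in the 48 h sham. Every 3 h value was below the early shams, but the difference of -0.59 ± 0.16 did not pass (limma adjusted p = 0.177). C1r had -0.17, -0.25 and -0.22 at 3 h, -0.21, -0.06 and -0.20 at 6 h, 0.59, 0.29 and 0.34 at 12 h and 0.55, 0.70 and 0.58 at 48 h, against -0.17, -0.04 and 0.04 in the early shams and 0.75 in the 48 h sham. At 3 and 6 h C1r overlapped the early shams, and at 12 and 48 h it lay above all of them.

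At 12 h C1r rose by 0.46 ± 0.09 (1.38-fold; limma adjusted p = 0.00838) and C1s by 0.71 ± 0.16 (1.64-fold; adjusted p = 0.0211) against the early shams. With Serping1 these made 3 of 7 members, where 3.49% of all genes rose, and the median of the 7 differences was 0.46, against -0.02 over all genes. The C1s call was lost without the first injured 12 h array (adjusted p = 0.0501), the 3 h sham (0.0936) or the 6 h sham (0.0551). At 6 h against the early shams 0 of 7 members passed (2.67% of all genes did, in either direction), with 1 member, C3, and 2029 of 14217 genes at an unadjusted p under 0.05.

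C3, the component on which the pathways converge, followed an uneven course. Its values were -0.60, -1.10 and -0.22 in injured cortex at 3 h, -0.38, 0.10 and 0.57 at 6 h, 0.54, 0.39 and -0.10 at 12 h and 0.67, 3.11 and 1.59 at 48 h, against -0.79, -1.07 and -0.79 in the early shams and 1.0 in the 48 h sham. The 3 h arrays overlapped the early shams, and every array from 6 h onward lay above them. The difference against the early shams was 0.24 ± 0.45 at 3 h, 0.98 ± 0.45 at 6 h (limma adjusted p = 0.346) and 1.16 ± 0.45 at 12 h (adjusted p = 0.164), none of which passed in the model of all groups. With only the compared groups in the model C3 passed at 6 h (limma adjusted p = 0.0313) and at 12 h (0.0245), and then it was the only member to pass at 12 h. At 48 h C3 rose by 2.67 ± 0.45 against the early shams (6.38-fold; adjusted p = 0.00336), and by 2.01 without the second 48 h array (adjusted p = 0.00447).

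The C1q chains passed no test against the early shams in the first 12 h. C1qa had 0.13, -0.45 and 0.00 in injured cortex at 3 h, -0.51, -1.20 and 0.00 at 6 h, -0.48, -0.09 and -0.24 at 12 h and 1.27, 2.62 and 1.07 at 48 h, against -0.18, 0.01 and 0.12 in the early shams and 1.01 in the 48 h sham. C1qb had -0.01, -0.32 and -0.33 at 3 h, -0.45, -1.52 and -0.17 at 6 h, -0.63, 0.41 and 0.01 at 12 h and 1.14, 3.16 and 1.10 at 48 h, against 0.04, -0.02 and 0.05 in the early shams and 1.0 in the 48 h sham. For both chains the second 6 h array was the lowest of all arrays and the second 48 h array the highest. C1qc had -0.21, -0.45 and -0.26 at 3 h, -0.26, -1.09 and 0.07 at 6 h, -0.10, 0.24 and 0.14 at 12 h and 1.73, 3.20 and 1.07 at 48 h, against -0.10, -0.07 and 0.16 in the early shams and 0.97 in the 48 h sham. Its 48 h arrays too stood clear of all earlier ones.

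Against the early shams the C1q differences at 6 h were -0.55 ± 0.35 for C1qa, -0.74 ± 0.47 for C1qb and -0.42 ± 0.40 for C1qc, with limma adjusted p between 0.514 and 0.695. At 12 h they were -0.25, -0.09 and 0.10. At 48 h all 3 chains rose against the early shams: C1qa by 1.67 ± 0.35 (3.18-fold; adjusted p = 0.0103), C1qb by 1.78 ± 0.47 (3.43-fold; adjusted p = 0.0295) and C1qc by 2.00 ± 0.40 (4.01-fold; adjusted p = 0.00788). Without the second 48 h array the sizes were 1.19, 1.10 and 1.40, and the C1qb call was lost (adjusted p = 0.0931), as it was without each early sham (0.0706 to 0.0885).

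Together with C1r (0.67 ± 0.09, 1.59-fold; limma adjusted p = 0.000991) and C1s (1.13 ± 0.16, 2.18-fold; adjusted p = 0.00136), all 7 members rose at 48 h against the early shams, where 6.37% of all genes did. For all 7 the injured 48 h arrays lay wholly above the early shams, as they did for 14.7% of all genes. The median difference was 1.78, against -0.01 over all genes. With only those 2 groups in the model, 4 of the 7 passed, C1r, C1s, C3 and Serping1, as did 4.11% of all genes.

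The control taken at the same time gave another result. The lone 48 h sham was above every early sham for all 7 members, a position that 27.4% of all genes shared. Its difference against the early shams was 1.89 ± 0.40 for Serping1 (3.70-fold), 1.88 ± 0.64 for C3 (3.69-fold), 0.81 ± 0.12 for C1r and 0.83 ± 0.23 for C1s. The C1q chains differed by 0.97 to 1.03. By absolute size these differences ranked between 17 and 198 among 14217 genes. None of the 7 passed the limma test (adjusted p from 0.114 for C1r to 0.843 for C1qb; 0.00703% of all genes passed), with 4 of 7 members and 973 of 14217 genes at an unadjusted p under 0.05. With both arrays of widest spread left out C1r passed (limma adjusted p = 0.0287), as did 0.0563% of all genes.

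Injured cortex at 48 h against the 48 h sham accordingly showed 0 of 7 members past the limma test, as did 0% of all genes, and 0 of 7 at an unadjusted p under 0.05 (1061 of 14217 genes). The differences were 0.64 ± 0.49 for C1qa, 0.80 ± 0.66 for C1qb, 1.03 ± 0.57 for C1qc, 0.79 ± 0.64 for C3, 0.85 ± 0.40 for Serping1, 0.29 ± 0.23 for C1s and -0.14 ± 0.12 for C1r. Their 95% intervals reached from -0.01 to 1.71 for Serping1 and from -0.18 to 2.24 for C1qc, so rises of that size could not be told from none with 1 sham array. The 3 injured 48 h arrays lay below the single sham for C1r and on both sides of it for C3. They lay above it for C1qa, C1qb, C1qc, C1s and Serping1. The share of all genes in such positions is not given here. Without the second injured array the differences of C1qa, C1qb, C1qc, C3 and C1s were 0.16, 0.12, 0.43, 0.13 and 0.17. Quantile normalization of the centred values narrows arrays of wide spread, such as the second injured 48 h array. After it C1qa was at 0.06, C1qb at 0.30, C1qc at 0.48, C3 at 0.43, Serping1 at 0.55, C1s at 0.01 and C1r at -0.31. With all 4 shams as control, 5 of 7 members passed (C1qa, C1qc, C1s, C3 and Serping1), as did 6.77% of all genes.

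**Figure D2:**
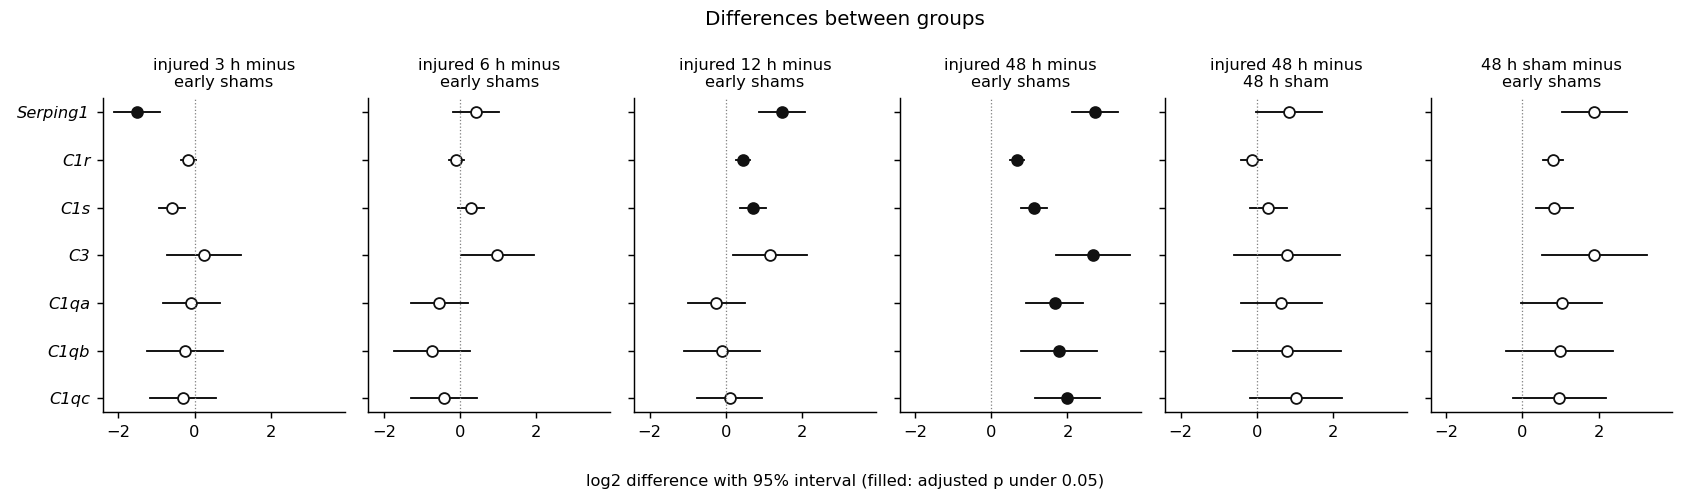
Log2 differences between groups for each member, with 95% intervals from limma; filled points have an adjusted p under 0.05. Serping1 alone is filled at 3 h, 3 genes are filled at 12 h and all 7 at 48 h against the early shams, and none against the 48 h sham.

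The injury effect at 48 h (against its own sham) was also set against each earlier effect. None of the 7 members passed for 48 h against 3 h (0.0985% of all genes did), for 48 h against 6 h (0.274%) or for 48 h against 12 h (0.204%). At an unadjusted p under 0.05 the counts of members were 2, 0 and 1, beside 1022, 1248 and 1298 of 14217 genes. For Serping1 the effect at 48 h exceeded that at 3 h by 2.36 ± 0.49 (limma adjusted p = 0.16). For C1r the effect at 48 h was below that at 12 h by a log2 difference of -0.60 ± 0.15 (adjusted p = 0.157).

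The steps between injured groups need no sham. At 6 h against 3 h Serping1 rose by 1.93 ± 0.28 (3.81-fold; limma adjusted p = 0.00532) and C1s by 0.87 ± 0.16 (adjusted p = 0.0204), 2 of 7 members, where 0.795% of all genes rose. The C1s call was lost in 5 of 6 fits that left out 1 array (adjusted p 0.0505 to 0.107), while Serping1 held in all 13 alternatives. Between 6 and 12 h all 7 differences were positive and 0 of 7 passed (0.0141% of all genes passed; 3 of 7 members and 1249 of 14217 genes had an unadjusted p under 0.05), with C1r at 0.56 ± 0.09 (adjusted p = 0.0607) and Serping1 at 1.07 ± 0.28 (0.315). C1r passed that step without the second or the third 12 h array. Over both steps together, a comparison added after the data were seen, Serping1 rose by 3.00 ± 0.28 at 12 h against 3 h (7.98-fold; adjusted p = 1e-04), C1s by 1.30 ± 0.16 (adjusted p = 0.000603) and C1r by 0.62 ± 0.09 (adjusted p = 0.00135), 3 of 7 members, where 4.82% of all genes rose, and these calls held in all 13 alternatives.

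The last step was the one in which the C1q chains rose. At 48 h against 12 h C1qa rose by 1.92 ± 0.35 (3.79-fold; limma adjusted p = 0.00299), C1qc by 1.91 ± 0.40 (0.00666), C1qb by 1.87 ± 0.47 (0.0166), C3 by 1.51 ± 0.45 (0.0377) and Serping1 by 1.25 ± 0.28 (0.00993). These were 5 of 7 members, where 8.19% of all genes rose. C1s at 0.42 ± 0.16 (adjusted p = 0.0953) and C1r at 0.20 ± 0.09 (0.138) did not pass, and both passed without the first 12 h array (0.012 and 0.0293). The C3 call was lost without the second 48 h array (difference 0.85, limma adjusted p = 0.117) or the third 48 h array (0.0533). It was also lost without the second or the third 12 h array (0.0717 and 0.108). C1qb was lost without the first 12 h array (0.0503), and Serping1 after quantile normalization of the centred values (0.0731). Without both arrays of widest spread C3 and Serping1 were lost (0.157 and 0.108). With the replicate number as a block C3 and C1qb were lost (0.0787 and 0.0525). With only the 12 and 48 h groups in the model 0 of 7 passed, against 2.73% of all genes.

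At 48 h against 3 h all 7 rose, where 6.07% of all genes did. Serping1 differed by 4.25 ± 0.28 (19-fold; limma adjusted p = 2.44e-06), C1s by 1.72 ± 0.16 (7e-05) and C1r by 0.82 ± 0.09 (0.000129). The C1q chains and C3 differed by 1.76 to 2.43, and C1qb was lost without the second or the third 3 h array (adjusted p = 0.0622 and 0.0524). With only those groups in the model 5 of 7 passed, as did 4.80% of all genes, and C1qb (limma adjusted p = 0.07) and C3 (0.0545) did not.

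In the order of group means, Serping1 and C1s ran alike: injured 3 h, early shams, injured 6 h, injured 12 h, 48 h sham and injured 48 h, low to high. C3 differed only in starting with the early shams. The C1q chains had injured 6 h as their lowest group and injured 48 h as their highest, with the 48 h sham next to it. For C1r the 48 h sham was the highest group. In each of these orders the injured 48 h group and the 48 h sham were neighbours that did not differ past the test, and neither did injured 12 h and 6 h for any member, nor injured 6 h and the early shams.

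Some members varied together more closely than others over the 16 arrays. Pearson's r was 0.97 for each pair of C1q chains, 0.98 for C1s and Serping1, 0.90 for C1r and Serping1 and 0.88 for C1r and C1s. Between the C1q chains and C1r, C1s or Serping1 it was 0.57 to 0.75, and C3 had 0.75 to 0.83 with every other member. The arrays share groups, so differences between group means contribute to these values. After each group's mean was subtracted (15 arrays, the lone sham left out), r was 0.94 to 0.96 among the C1q chains and 0.80 to 0.82 among C1r, C1s and Serping1. The C1q chains then had r of -0.12 to 0.06 with C1r, 0.13 to 0.34 with C1s, 0.27 to 0.50 with Serping1 and 0.62 to 0.69 with C3, and C3 had 0.69 with Serping1. Without the second injured 48 h array r was 0.88 to 0.93 among the C1q chains, 0.77 to 0.80 among C1r, C1s and Serping1, and 0.30 to 0.47 for the C1q chains with C3. Over the 12 arrays from 3 to 12 h, r was 0.80 to 0.89 among the C1q chains and 0.98 for C1s and Serping1. These correlations are descriptions of arrays that may share processing.

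**Figure D3:**
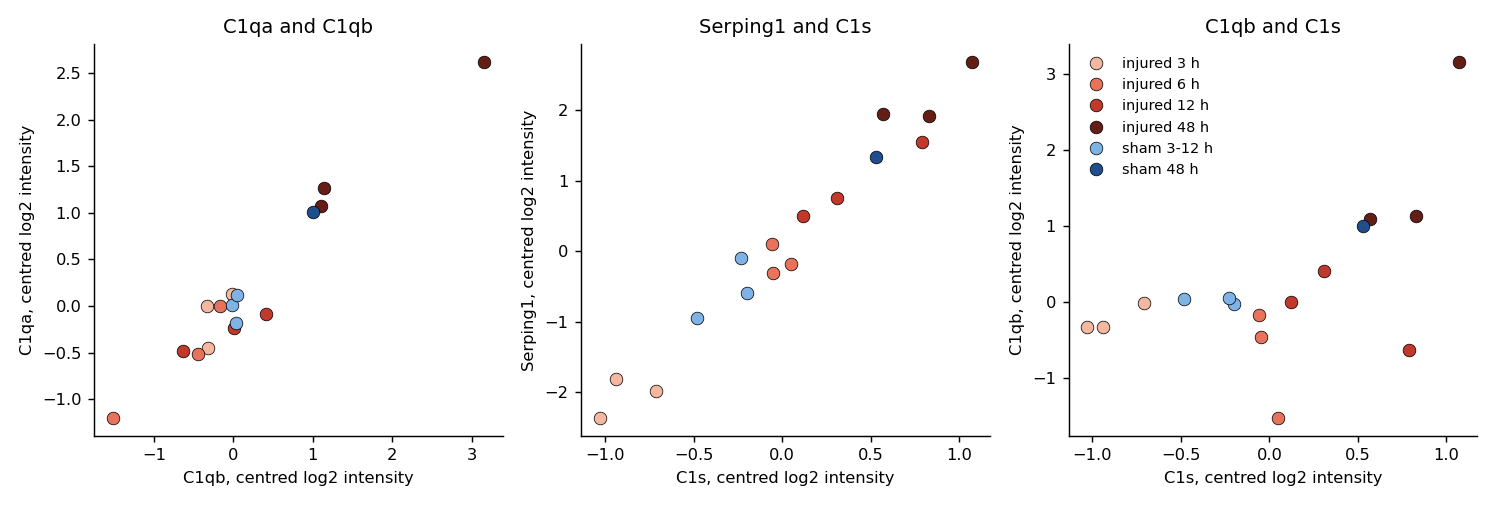
Centred log2 intensity of pairs of members, 1 point per array, coloured by group. C1qa follows C1qb and Serping1 follows C1s over all 16 arrays (r = 0.97 and 0.98), while C1qb follows C1s less closely (r = 0.57).

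For 5 of the 7 members the closest gene of the whole table, by Pearson's r over the 16 arrays, was another member. C1qa and C1qb were each other's closest (0.974), and C1qc was close to both. Beyond the members, the nearest gene was Ctsh, a lysosomal protease, for C1qa (0.97), Csf1r, the receptor on which microglia and macrophages depend, for C1qb (0.95) and Grn, which encodes progranulin, for C1qc (0.967). C1s and Serping1 were each other's closest (0.983), and both had Gfap, the intermediate filament of astrocytes, next (0.926 and 0.933). C1s was as close to Ifi35 (0.926) and Serping1 as close to Psme1, a proteasome activator subunit (0.933). C1r was closest to Ifitm2 (0.91), and C3 to Tlr4 (0.965), Btk (0.941) and Rac2 (0.929), genes used by myeloid cells.

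Markers of cells that could supply these transcripts also changed, not always as the members did. Of 10 microglia markers measured, 3 fell and none rose at 6 h and likewise at 12 h against the early shams (medians -0.48 and -0.19), and 7 rose at 48 h (median 1.20), among them Tyrobp (2.32 ± 0.33), Csf1r (1.51 ± 0.21) and Aif1 (1.22 ± 0.15). Their mean centred log2 value was -0.15 to 0.20 on the injured 3 h arrays, -0.75 to -0.25 at 6 h, -0.56 to -0.26 at 12 h and 1.06 to 1.72 at 48 h, against -0.05 to 0.30 in the early shams and 0.51 in the 48 h sham. The mean of the 3 C1q chains was 1.08 to 2.99 in injured cortex at 48 h, -0.08 to 0.11 in the early shams and 0.99 in the 48 h sham. Taken as a difference within each array, C1q minus microglia markers was 0.24, 1.27 and 0.02 at 48 h, between -0.38 and 0.16 in the early shams and 0.48 in the 48 h sham. It was -0.34 to -0.05 at 3 h, -0.52 to 0.30 at 6 h and 0.16 to 0.53 at 12 h, so arrays outside the range of the shams occurred at 6, 12 and 48 h, the farthest being the second 48 h array. The part of microglia in the C1q differences was not tested.

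**Figure D4:**
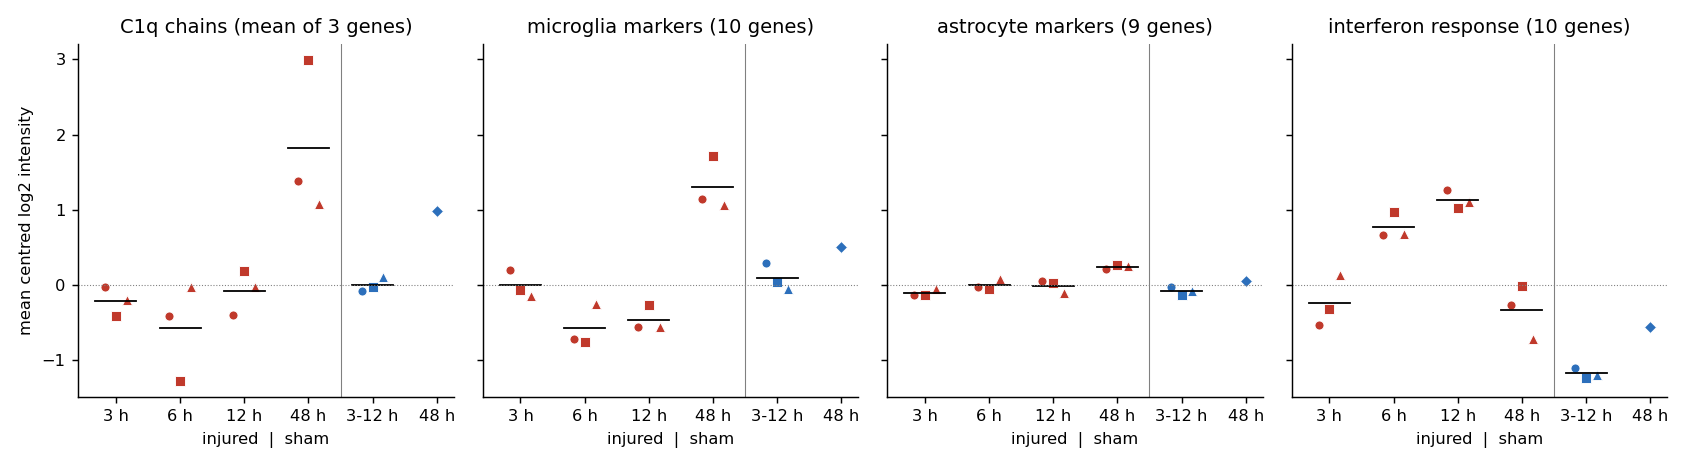
Mean centred log2 intensity per array of the 3 C1q chains and of microglia, astrocyte and interferon-response markers, injured arrays in red and shams in blue, with lines at means of 3 arrays. The C1q chains and microglia markers are both highest at 48 h, the interferon-response markers at 12 h (1.03 to 1.27).

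Other cell markers moved on the same arrays. The 2 erythrocyte markers averaged 0.36 to 1.13 in injured cortex at 3 h and 0.79 to 1.73 at 6 h. They averaged -0.50 to 0.81 at 12 h and -1.14 to -0.94 at 48 h, against -1.45 to -0.67 in the early shams. The 7 choroid plexus markers averaged 0.14 to 1.30 at 3 h, against -0.10 to 0.03 in the early shams, and none of them passed there. The 8 monocyte and macrophage markers averaged 0.08 to 1.90 in injured cortex at 48 h, with 1.90 on the second array, against -0.50 to -0.46 in the early shams and 0.14 in the 48 h sham. The 7 neutrophil markers averaged 1.85 to 2.51 at 12 h and -0.16 to 1.10 at 48 h, against -0.46 to -0.20 in the early shams. The 10 meningeal and fibroblast markers averaged 0.60 to 1.08 at 48 h, against 0.12 to 0.62 in the early shams and 0.93 in the 48 h sham, but -0.32 to -0.23 at 3 h, and 1, 3 and 4 of them fell at 3, 6 and 12 h. Of 9 endothelial markers 5 fell and 1 rose at 6 h, and 3 fell and 1 rose at 12 h. Of 9 astrocyte markers 3 rose at 48 h against the early shams (median 0.20), Gfap by 1.85 ± 0.24, and in the 48 h sham against the early shams none passed (median -0.04), with Gfap the most different at 1.29 ± 0.33 (limma adjusted p = 0.419). Of 10 interferon-response markers 1 rose at 3 h, 7 at 6 h, 8 at 12 h (median 2.57) and 3 at 48 h against the early shams. At 12 h against 3 h 5 of these 10 rose (median 1.53), as did 5 of the 7 neutrophil markers (median 1.58). At 48 h against 12 h 6 of the 10 fell and none rose (median -1.27), and 4 of the 7 neutrophil markers fell (median -1.05). The part of these cells and signals in the complement differences was not tested.

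Other complement genes were tested through lists, as far as they were measured. Of 8 measured alternative and terminal pathway genes, none passed against either control at 3, 6, 12 or 48 h, with medians from -0.05 to 0.06. Between injured groups 1 of the 8 rose at 12 h against 3 h, where 4.82% of all genes rose. At 48 h against 3 h 1 of the 8 rose, where 6.07% of all genes did. The other classical pathway genes listed, C2, C4a and C4b, had no probe set that named them as its only symbol. Probe sets with several symbols were not used, so nothing can be said of these genes. Of 8 measured lectin pathway and collectin genes, Colec12, a scavenger collectin, fell by 1.36 ± 0.35 at 12 h (limma adjusted p = 0.0392). Fcna, a ficolin that starts the lectin pathway, rose at 48 h against the early shams by 0.56 ± 0.16 (limma adjusted p = 0.0432). Of 8 regulators, Clu, which encodes clusterin, rose by 0.33 ± 0.08 in that comparison (adjusted p = 0.0268).

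Of 8 complement receptors measured, 1 rose at 3 h, 1 at 6 h, 2 at 12 h and 2 at 48 h against the early shams, and 0 at 48 h against the 48 h sham, with medians of 0.26, 0.52, 0.76, 0.43 and 0.34. Cd93, a transmembrane protein of endothelial and myeloid cells once described as a C1q receptor, rose by 0.77 ± 0.15 at 3 h (limma adjusted p = 0.0351), 0.75 ± 0.15 at 6 h (0.0151) and 0.60 ± 0.15 at 12 h (0.0349). Itgax, the alpha chain of complement receptor type CR4, rose at 12 h by 0.93 ± 0.21 (adjusted p = 0.0217). At 48 h against the early shams Itgam and Itgb2, the chains of CR3 that bind C3 fragments, rose by 1.38 ± 0.31 (0.0141) and 1.42 ± 0.29 (0.00975). Itgam stood at -0.46 in the 48 h sham, against -0.37 ± 0.23 in the early shams (SD, n = 3), and its difference of 1.47 ± 0.43 against the 48 h sham did not pass (adjusted p = 0.492).

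Of 6 measured genes of the contact system, on which C1 inhibitor also acts, or of linked plasma proteases, Plat, which encodes tissue plasminogen activator, rose by 1.35 ± 0.20 at 3 h (limma adjusted p = 0.00582) and by 0.80 ± 0.20 at 6 h (adjusted p = 0.0477) against the early shams. At 3 h Plat averaged 1.06 ± 0.17, against -0.29 ± 0.08 in the early shams (SD, n = 3 each). A relation between Plat and Serping1 was not tested. No other gene of this list passed against either control.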

How the data were processed

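RNA was measured on 16 rat arrays. The deposited table holds log values that the authors made with RMA, per the submitters' processing notes, a method that corrects background, quantile-normalizes arrays and summarises probes, and each probe set's median over the arrays had been subtracted (0 probe sets had another median than 0). The log base is not stated, and the deposited values were taken as log2. They ran from -5.64 to 5.98. Precision is limited by how few arrays there are.

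Of 31099 probe sets, 57 controls were dropped, and 20826 with exactly 1 gene symbol were averaged into 14217 genes, with symbols updated through gene identifiers. The 436 probe sets with several symbols and 9780 with none were not used. limma 3.58.1 in R 4.3.3 fitted 1 model of 6 groups (10 residual degrees of freedom) and was tested on simulated data. The members and lists were chosen with earlier results of these data known. Besides the members, genes were named where they belonged to a list of complement or contact genes and passed in a comparison with sham, or were among the 3 closest to a member. Cell markers were picked from their lists after their values were seen. Samples with the same replicate number did not deviate together (3 of 18 pairs had a correlation over 0.1), so no block was used. Alternatives were other normalizations, probe sets tested singly, array weights, other controls, smaller models and leaving out arrays. Quantile normalization was run on the centred values, not on intensities, so it also evens out differences in spread that the groups may hold.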

Additional observations from a re-analysis of the deposited data

Results flagged for a closer look

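The injury effects of several members differed between times by a test of the difference itself. Because the early shams are subtracted from both sides, each difference equals the step between the injured groups. C1s had an injury effect larger at 6 h than at 3 h by 0.87 ± 0.16 on the log2 scale (limma adjusted p = 0.0204, higher on 3 of 3 arrays than on any 3 h array), and Serping1 by 1.93 ± 0.28 (adjusted p = 0.00532, likewise). At 12 h against 3 h the effect was larger by 0.62 ± 0.09 for C1r (adjusted p = 0.00135), by 1.30 ± 0.16 for C1s (adjusted p = 0.000603) and by 3.00 ± 0.28 for Serping1 (adjusted p = 1e-04). All 3 later arrays again lay above all 3 earlier ones. They also did so for C1qc and C3, which did not pass (limma adjusted p = 0.588 and 0.231). The share of all genes in that position is not given for either step.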

How the results depend on the processing

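Of 966 member results under alternatives, 880 kept their direction and side of the threshold, 53 lost the call, 20 gained it and 13 turned in direction, none of the last being called. Percentages in brackets are shares of all genes called in either direction. Leaving out 1 array at a time gave 0 to 1 members called at 3 h against the early shams (0.232 to 0.823%), where all arrays gave 1 (0.584%). Against the same shams there were 0 to 0 at 6 h (1.24 to 1.93%), 2 to 3 at 12 h (2.02 to 8.65%) and 6 to 7 at 48 h (3.39 to 14.4%). The 48 h injury against the 48 h sham gave 0 to 0 (0.00703 to 0.907%). Between injured groups, 6 h against 3 h gave 1 to 2 (0.274 to 1.1%) and 12 h against 6 h gave 0 to 1 (0.00703 to 0.317%). Members called were 4 to 6 at 48 h against 12 h (9.42 to 17.2%) and 6 to 7 at 48 h against 3 h (3.85 to 13.3%). Array weights gave 2 members at 3 h (3.97%), and 1 each for the 48 h sham against the early shams (0.0281%) and for 12 h against 6 h (0.0563%). Against the sham of the same time alone, which is 1 array, the calls at 3 and 12 h did not hold. Serping1 then differed by -1.11 at 3 h. At 12 h Serping1 differed by 1.04, C1s by 0.64 and C1r by 0.37, each less than against the early shams. All 4 shams as control gave 0 at 12 h (6.64%) and 5 at 48 h against sham (6.77%), where the 48 h sham alone gave 0 (0%). The compared groups alone gave 1 at 6 h (5.6%), 1 at 12 h (1.91%) and 4 at 48 h against the early shams (4.11%). They gave 2 for the 48 h sham (0.492%) and 0 at 48 h against 12 h (2.73%). Quantile normalization of the centred values gave 1 for the 48 h sham (0.239%). It gave 2 at 12 h (5.19%), in place of 3 (4.87%), and 4 at 48 h against 12 h (9.88%), in place of 5 (15.3%). Leaving out both arrays of widest spread was an alternative chosen after seeing the data. It gave 1 for the 48 h sham (0.0563%), 1 at 12 h against 6 h (0.0703%) and 3 at 48 h against 12 h (6.8%). A replicate block gave 3 members at 48 h against 12 h (11.7%), in place of 5, and also lost C1qb at 48 h against 3 h (limma adjusted p = 0.0577). The block changed no other member call. The paired reading has no basis in the labels.

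Differences that turned, in fits that each left out 1 array, spanned -0.208 to 0.082 for C1qa at 3 h, -0.333 to 0.187 for C1qb at 12 h, -0.368 to 0.212 for C1qc at 6 h against 3 h, -0.015 to 0.585 for C1qa and -0.058 to 0.417 for C3 at 12 h against 6 h, and -0.09 to 0.43 for C1qb at 12 h against 3 h (also -0.09 with both widest arrays out). With the sham of the same time alone C1qa at 3 h was 0.073 and C1qc at 12 h -0.067. With all 4 shams C3 at 3 h was -0.228, Serping1 at 6 h -0.055, C1qc at 12 h -0.147 and C1r at 48 h 0.465. The causes were not tested. Centred values hold no signal over background, so which members were near background is unknown.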
